A study of Mus musculus with 2 samples.

Results

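The genes described here encode subunits of the transcription factor NF-kappaB and proteins that regulate it, some of them induced by NF-kappaB to hold itself in check. They were chosen by name as a list of 10 genes among the 31053 in the feature list: the inhibitor genes Nfkbia, Nfkbib and Nfkbie, the nuclear inhibitor-like genes Nfkbiz and Bcl3, the ubiquitin-editing enzyme gene Tnfaip3, and the subunit genes Nfkb1, Nfkb2, Rel and Relb. All 10 were measured, and all had at least 20 UMIs (unique molecular identifiers, each standing for a captured transcript), the minimum used for ratios. Single-cell RNA sequencing was run on cells sorted near the cribriform plate of 10-week-old female wild-type C57BL/6J mice, 5 pooled with EAE (experimental autoimmune encephalomyelitis, a model of multiple sclerosis in which the immune system attacks myelin) and 5 pooled healthy. Each pool is 1 sample, so there is no replicate and no test. How EAE was induced and at which stage cells were taken is not given in the sources used here. The matrix joins the pools under barcode suffixes 2 and 1, called library 2 and library 1 here, and nothing in the labels or files ties a suffix to EAE or to healthy mice. The libraries are therefore set side by side as libraries, and no statement is made about disease.

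Kept cells, which passed a minimum of 200 genes and a mitochondrial limit of 20%, numbered 1922 in library 2 and 3406 in library 1, or 5328 in all. Their median depth was 9782.5 UMIs in library 2 and 7334 UMIs in library 1, and their median mitochondrial share was 3.74% and 1.54%. The sort aimed at endothelial cells of lymphatic vessels, but the podoplanin gene Pdpn had a UMI in 4 cells of library 2 and 12 cells of library 1. The lymphatic marker gene Flt4 had one in 5 and 7 cells. Prox1, another lymphatic marker gene, had one in 6.04% and 8.51% of cells, and the endothelial gene Pecam1 in 5.31% and 12.2%. The CD45 gene Ptprc, whose protein was gated out, had one in 81.1% and 81.9%. Clusters that expressed the marker genes of microglia, the immune cells native to brain tissue, held 89.3% of kept cells in library 2 and 90.4% in library 1. The values below are therefore largely those of microglia-like cells. The libraries stand apart: of 16 clusters, no microglia-like cluster with at least 50 cells in one library had more than 20 cells in the other. Their barcodes share 8 sequences, 7 of them among kept cells.

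NF-kappaB proteins are dimers that sit inactive in the cytoplasm, bound by inhibitors of the IkappaB family. Signals from Toll-like receptors, the interleukin-1 receptor or TNF receptors activate a kinase that marks the inhibitor for destruction, and the freed dimer enters the nucleus. Among the first genes it switches on are those of its own inhibitors, so the response limits itself, and several subunit genes are targets as well. In microglia the pathway drives inflammatory cytokine and chemokine genes.

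Promoter sequence of the genes is shown first because many of them are known to be controlled by NF-kappaB itself. RefSeq promoter windows of build GRCm38.p6, from 250 bases before to 50 bases after a gene's start, were matched for 7 of the 10 genes, in 10 windows. The kappaB consensus motif, 10 bases long, was searched on both strands, and overlapping matches were counted separately. It matched in 8 of the 10 windows and in 6 of the 7 genes, against 8.46% of all 32851 windows and 9.55% of all 27025 genes in the same table. A match describes these letters only and is not evidence of binding in these cells. Capitals mark the matches, and a position is that of the first base of a match on the strand printed, counted from the start of the gene. Windows are given for the inhibitor gene Nfkbia (chr12:55492598-55492897, minus strand), the enzyme gene Tnfaip3 (chr10:19015361-19015660, minus strand) and the subunit gene Rel (chr11:23770920-23771219, minus strand), each more than 2-fold lower in library 2. Nfkb2 (chr19:46304487-46304786, plus strand) is shown as a gene with matches whose level differed little, and Nfkbib (chr7:28766595-28766894, minus strand) as a gene with no match whose level differed much.
Nfkbia: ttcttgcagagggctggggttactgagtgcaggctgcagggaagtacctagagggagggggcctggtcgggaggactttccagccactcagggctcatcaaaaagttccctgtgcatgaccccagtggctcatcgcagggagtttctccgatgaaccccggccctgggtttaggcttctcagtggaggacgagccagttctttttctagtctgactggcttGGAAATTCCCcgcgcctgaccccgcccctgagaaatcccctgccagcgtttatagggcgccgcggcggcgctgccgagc
Tnfaip3: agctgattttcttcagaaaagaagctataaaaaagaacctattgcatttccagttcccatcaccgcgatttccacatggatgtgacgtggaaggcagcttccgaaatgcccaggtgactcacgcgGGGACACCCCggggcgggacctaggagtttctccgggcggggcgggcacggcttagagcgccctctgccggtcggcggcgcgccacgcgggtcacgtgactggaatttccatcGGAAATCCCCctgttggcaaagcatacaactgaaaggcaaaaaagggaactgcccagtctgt
Rel: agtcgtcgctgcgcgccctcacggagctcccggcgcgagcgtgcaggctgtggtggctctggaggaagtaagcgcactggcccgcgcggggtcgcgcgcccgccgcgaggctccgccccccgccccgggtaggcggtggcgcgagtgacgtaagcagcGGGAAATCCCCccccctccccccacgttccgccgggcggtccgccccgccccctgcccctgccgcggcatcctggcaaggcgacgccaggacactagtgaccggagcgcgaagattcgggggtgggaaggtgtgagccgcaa
Nfkb2: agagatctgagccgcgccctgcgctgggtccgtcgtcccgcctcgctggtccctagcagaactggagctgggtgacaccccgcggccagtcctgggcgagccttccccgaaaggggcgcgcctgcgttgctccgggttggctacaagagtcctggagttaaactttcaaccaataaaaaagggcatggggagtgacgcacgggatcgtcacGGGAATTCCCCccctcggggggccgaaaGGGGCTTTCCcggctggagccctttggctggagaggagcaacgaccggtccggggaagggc
Nfkbib: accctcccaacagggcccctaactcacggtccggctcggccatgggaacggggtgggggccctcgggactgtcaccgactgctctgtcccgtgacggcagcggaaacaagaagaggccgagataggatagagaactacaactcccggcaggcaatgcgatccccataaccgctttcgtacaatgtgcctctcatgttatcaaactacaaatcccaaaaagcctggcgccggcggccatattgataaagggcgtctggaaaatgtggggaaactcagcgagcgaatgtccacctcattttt
The Nfkbia window held 1 match at position -29. The Tnfaip3 window held 2, at -125 and -12, and a second window of that gene held 0. The Rel window held 2 that overlap, at -92 and -91. The Nfkb2 window held 3, at -39, -38 and -11, of which the first 2 overlap, and both other windows of Nfkb2 shared another match. Of the windows not printed, that of Nfkbie held 1 match at -106 and that of Bcl3 held 1 at 3. The Nfkbib window held 0.

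Of the 10 genes, 9 were lower in library 2, where 6596 of all 13891 genes with at least 20 UMIs were. The 9 differed by very different amounts. Levels are CPM, the UMIs of a gene summed over the kept cells and scaled to 1000000 UMIs of those cells, with exact 95% Poisson intervals that, like all intervals here, cover counting error only. Ratios are log2 of library 2 over library 1 with a pseudocount of 10 CPM, which understates differences of low genes. On that scale 5 genes were more than 2-fold lower in library 2 (Nfkbia, Nfkbib, Nfkbiz, Tnfaip3 and Rel), where 1.92% of all 13891 genes with at least 20 UMIs were. None of the 10 was more than 2-fold higher, where 2.76% of all genes were. The median ratio over the 10 genes was -1.06, and over all genes 0.02. Depth, mitochondrial share and the immediate early genes described further on also differed between the libraries, and their part in these ratios was not tested beyond the comparisons on thinned cells and at equal immediate early share. So did the summed levels of cell type markers. The 7 microglia markers, all found in both libraries, had 9230 CPM in sum in library 2, against 15096 CPM in library 1. Sensory neuron markers, 6 of 6 found in both, had 543 CPM in library 2, against 103 CPM in library 1, and olfactory ensheathing markers, also 6 of 6, had 307 and 86.6 CPM. Monocyte markers, 5 of 5 found in both, had 73.1 CPM in library 2, against 10.8 CPM in library 1, and fibroblast markers, also 5 of 5, had 222 and 19.5 CPM. Red blood cell markers had 0.641 CPM in library 2, with 2 of 5 found, against 323 CPM in library 1, with 5 of 5. Within microglia-like cells alone, the median ratio of the 10 genes was -1.03, and 5 genes were more than 2-fold lower in library 2, where 1.99% of all genes were. None was more than 2-fold higher, where 2.55% were.

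Of the classical inhibitors, which hold NF-kappaB in the cytoplasm, Nfkbia and Nfkbib differed most. Nfkbia (ENSMUSG00000021025) encodes IkappaB-alpha, the inhibitor that is degraded and made again within a short time of a stimulus. It stood at 954 CPM in library 2 (940 to 967; 19345 UMIs), against 2661 CPM in library 1 (2641 to 2681; 68560 UMIs), a log2 ratio of -1.47. Most cells of both libraries carried it: 91.1% had a UMI in library 2 and 95.4% in library 1. Nfkbib (ENSMUSG00000030595), which encodes IkappaB-beta, a more slowly degraded inhibitor, stood at 62.9 CPM in library 2 (59.5 to 66.4) and 209 CPM in library 1 (203 to 214), a ratio of -1.59. Nfkbie (ENSMUSG00000023947), which encodes IkappaB-epsilon, stood at 42.3 CPM in library 2 (39.5 to 45.2) and 71.6 CPM in library 1 (68.4 to 75.0), a ratio of -0.64. The inhibitor genes thus differed among themselves, with Nfkbie inside the 2-fold limit.

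The nuclear members of the inhibitor family split in the same way. Nfkbiz (ENSMUSG00000035356) encodes IkappaB-zeta, which works in the nucleus and helps NF-kappaB to switch on a second set of genes such as Il6. It stood at 196 CPM in library 2 (190 to 202) and 632 CPM in library 1 (622 to 642), a ratio of -1.64. Bcl3 (ENSMUSG00000053175), whose protein binds dimers on DNA and can damp or raise transcription, was the exception to the direction. It stood at 14.9 CPM in library 2 (13.3 to 16.7) and 14.6 CPM in library 1 (13.2 to 16.2), so that the intervals overlap nearly in full. With 302 UMIs in library 2 and 377 UMIs in library 1 it rested on the fewest counts of the 10.

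Tnfaip3 (ENSMUSG00000019850) encodes A20, an enzyme that edits ubiquitin chains upstream of the inhibitors and so ends signalling. It stood at 180 CPM in library 2 (175 to 186) and 582 CPM in library 1 (572 to 591), with a ratio of -1.64, close to that of Nfkbiz. Its share of cells with a UMI was 61.9% in library 2 and 77.9% in library 1.

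Among the subunit genes, Rel stood apart. Rel (ENSMUSG00000020275) encodes c-Rel, a subunit with its own activation domain that is prominent in blood cells, and had the largest ratio of the 10, -1.93. Its level was 135 CPM in library 2 (130 to 140), against 545 CPM in library 1 (536 to 554). Nfkb1 (ENSMUSG00000028163), which encodes a precursor that is cut to a DNA-binding subunit of the classical pathway, stood at 147 CPM in library 2 (142 to 153) and 217 CPM in library 1 (211 to 223), a ratio of -0.53. Relb (ENSMUSG00000002983) and Nfkb2 (ENSMUSG00000025225) encode the partners of the alternative pathway. Relb stood at 66.8 CPM in library 2 (63.2 to 70.4) and 91.2 CPM in library 1 (87.6 to 94.97), a ratio of -0.40. Nfkb2 stood at 38.1 CPM in library 2 (35.4 to 40.8) and 43.3 CPM in library 1 (40.8 to 45.9), a ratio of -0.15, and its intervals just touch. Rela, the remaining subunit gene and not in the list of 10, stood at 49.99 CPM in library 2 and 102 CPM in library 1, a ratio of -0.90.

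**Figure D1:**
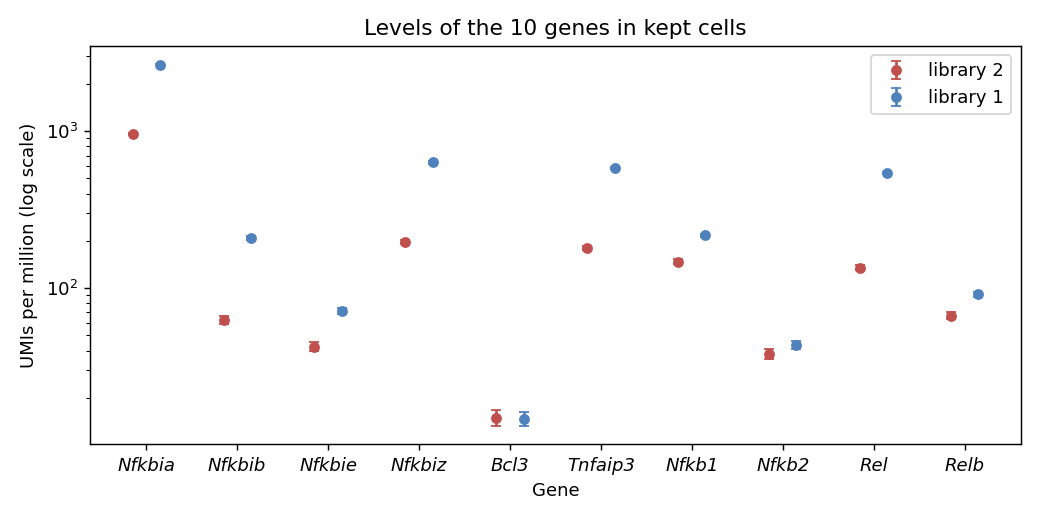
Level of each of the 10 genes in kept cells of library 2 (left of each pair) and library 1, in CPM on a log axis, with exact 95% Poisson intervals. Rel and Nfkbiz show wide gaps, with library 2 below library 1, whereas Bcl3 (14.9 and 14.6 CPM) and Nfkb2 (38.1 and 43.3 CPM) nearly coincide.

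The share of cells with a UMI depends on depth, which was greater in library 2. Each cell was therefore thinned to 1000 UMIs, which left 1907 cells of library 2 (15 were too shallow) and 3319 cells of library 1 (87 were too shallow). After thinning, Nfkbia had a UMI in 49.4% of cells in library 2 (exact binomial interval 47.1% to 51.7%) and 79.1% in library 1 (77.7% to 80.5%). Rel was found in 11.9% of thinned cells of library 2 and 39.2% of library 1, Nfkbiz in 15.3% and 38.2%, and Tnfaip3 in 15.2% and 35.2%. Nfkbib was found in 6.61% and 18.5%. The order of the libraries was thus that of the CPM values for all 5 genes with large ratios. Nfkb2 (3.51% and 4.49%) had overlapping intervals, as did Bcl3 (1.31% and 1.39%) and, narrowly, Relb (6.71% and 8.47%). On all UMIs, by contrast, Nfkb1 was found in 69.9% of cells of library 2 and 69.7% of library 1, where the thinned shares were 13.1% and 19.2%. At least 5 of the 10 genes were found together in 0.682% of thinned cells of library 2 and 8.35% of library 1, and none of them in 27.6% and 6.78%.

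**Figure D2:**
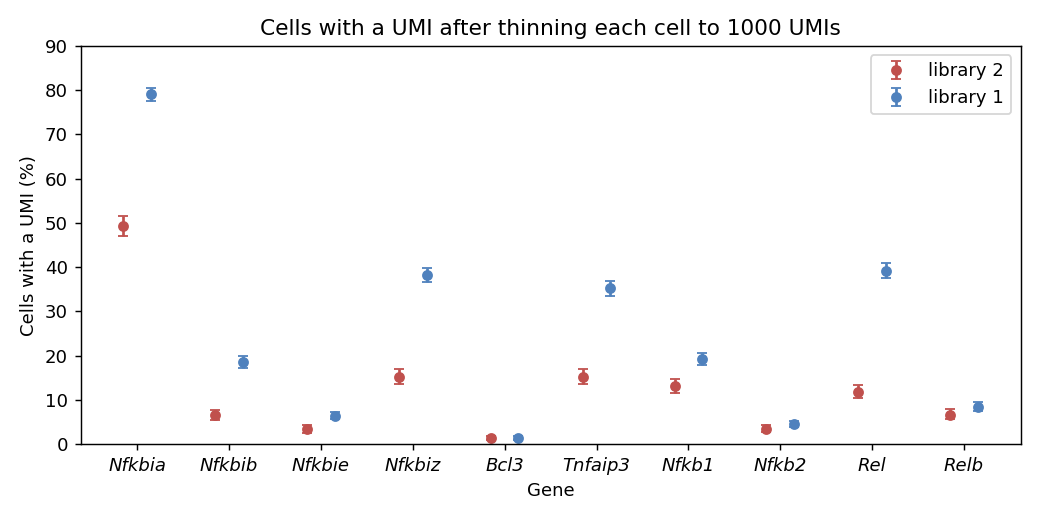
Share of kept cells with a UMI of each gene after each cell was thinned to 1000 UMIs, in library 2 (left of each pair) and library 1, with exact 95% binomial intervals. Nfkbia was found in 49.4% of thinned cells of library 2 and 79.1% of library 1, and Bcl3 in 1.31% and 1.39%.

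Sensory neurons held almost no transcripts of most of these genes. In the 37 sensory-neuron-like cells of library 2 (median 11227 UMIs), which should lack microglial transcripts, Nfkbia stood at 69.9 CPM (48.1 to 98.1), whereas the 1717 microglia-like cells beside them (median 9926 UMIs) had 1008 CPM. Tnfaip3 and Rel had 1 UMI each in these neurons, Nfkbiz 3 and Nfkb1 4. Nfkb2, Relb and Nfkbie had 0 UMIs there, where 3 counts would make 6.35 CPM. Nfkbib was different: it stood at 48.7 CPM in the neurons (30.9 to 73.1) and 64.3 CPM in the microglia-like cells of library 2, within the neurons' interval. Before thinning, 59.5% of the neurons and 91.1% of all kept cells of library 2 had a UMI of Nfkbia, and after thinning 5.41% of the neurons had one. Library 1 held 7 such neurons, too few to be summarised, so the background share behind the values of library 1 was not measured.

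The same genes could be followed in the glia of the olfactory nerve, whose cluster also holds microglia transcripts. In olfactory ensheathing-like cells Nfkbia stood at 610 CPM in library 2 (62 cells; 545 to 681) and 1609 CPM in library 1 (43 cells; 1460 to 1770). Rel stood at 95.3 CPM in library 2 (70.7 to 126) and 320 CPM in library 1 (255 to 396). A cluster that mixed red blood, connective tissue and vessel transcripts had Nfkbia at 205 CPM in library 2 (97 cells) and 1783 CPM in library 1 (84 cells). Library 2 was thus the lower one for Nfkbia in each class that both libraries filled with at least 20 cells. Border-macrophage-like cells, found as 54 cells in library 1 only, had Nfkbia at 2248 CPM (2117 to 2385), Tnfaip3 at 617 CPM (550 to 691) and Rel at 394 CPM (341 to 454). The microglia-like cells of library 1 had 2751 CPM of Nfkbia, 595 CPM of Tnfaip3 and 564 CPM of Rel. Of these, Tnfaip3 had overlapping intervals in both classes.

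Among microglia-like clusters with at least 50 cells in library 1, a single cluster was highest for every one of these genes. Clusters were built without the 10 genes, the other NF-kappaB genes or the immediate early genes, and the spread across them is a description. Of the 6 microglia-like clusters of library 1 with at least 50 cells, cluster 4 was highest for all 10 genes. Its 10 leading genes include Gadd45b and Il1a. Cluster 1 was lowest for 6 genes and cluster 2 for 4. The share of all genes highest or lowest in the same clusters was not computed. These counts can therefore not be read as particular to the 10 genes. Nfkbia stood, from low to high, at 1737 CPM in cluster 1, 1827 in cluster 2, 2112 in cluster 10, 2579 in cluster 3, 3414 in cluster 9 and 4035 in cluster 4, and no 2 neighbours in that order had overlapping intervals. Nfkbib spanned 103 to 371 CPM over the same clusters, Nfkbiz 348 to 1158 CPM and Rel 295 to 809 CPM, with clusters 2 and 10 indistinguishable for Rel (465 CPM in both). Bcl3 had the widest relative span, from 2.68 CPM in cluster 2 (1.42 to 4.58) to 31.3 CPM in cluster 4 (27.0 to 36.2). Without cluster 4 the ratio of Bcl3 was 0.34, and the same 5 of the 10 genes were more than 2-fold lower in library 2, where 1.79% of all genes were. None was more than 2-fold higher, where 2.68% were. Cluster 13, left unnamed (75 cells of library 1, median 2384 UMIs), was outside the comparison of clusters. In it 6 of 7 microglia markers reached 100 CPM. It had Nfkb2 at 102 CPM (63.3 to 156) and Relb at 151 CPM (103 to 214). Cluster 4 had them at 65.7 and 123 CPM, with overlapping intervals. For the other genes of the list cluster 13 lay below cluster 4.

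Library 2 had 4 microglia-like clusters of that size, and the ratio of its highest to its lowest cluster was smaller than in library 1 for 9 of the 10 genes. Relb was the exception, with ratios of 1.94 in library 2 and 1.69 in library 1, and Nfkb2 was nearly equal, at 2.07 and 2.09. More clusters can widen such a ratio, and library 1 had 6. Cluster 7, whose leading genes include Cxcl9, Cxcl13 and Cd274, was highest for 8 of the 10 genes. Cluster 11, led by interferon-induced genes such as Ifit3 and Rsad2, was lowest for 7. For these counts too the share of all genes was not computed. Nfkbia ran from 697 CPM in cluster 11 (675 to 720) through 951 in cluster 8 and 1130 in cluster 12 to 1222 in cluster 7 (1184 to 1261). Nfkbie, Nfkb2 and Relb had the widest relative spans in library 2. Relb stood there at 106 CPM (95.5 to 118) and in cluster 11 at 54.7 CPM (48.7 to 61.3). Nfkb2 stood at 61.1 CPM in cluster 7 (52.9 to 70.3) and 29.5 CPM in cluster 11 (25.1 to 34.4), and Nfkbie at 70.1 and 32.4 CPM. Rel did not follow them: it was highest in cluster 12, at 167 CPM (158 to 176), and stood at 124 CPM in cluster 7 (112 to 137). Nfkb1 hardly varied, with 149 to 173 CPM.

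Set against each other, the clusters of the libraries did not overlap for 5 genes and did for the other 5. For Nfkbia, Nfkbib, Nfkbiz, Tnfaip3 and Rel, the highest cluster of library 2 lay below the lowest of library 1, as with Rel at 167 and 295 CPM. The same held for 14.0% of all 13891 genes with at least 20 UMIs. The 5 named genes are those past the 2-fold limit. For Nfkbie, Bcl3, Nfkb1, Nfkb2 and Relb the ranges crossed. Cluster 7 of library 2 and cluster 4 of library 1, for example, had Nfkb2 at 61.1 and 65.7 CPM, while Rel stood at 124 and 809 CPM in them.

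**Figure D3:**
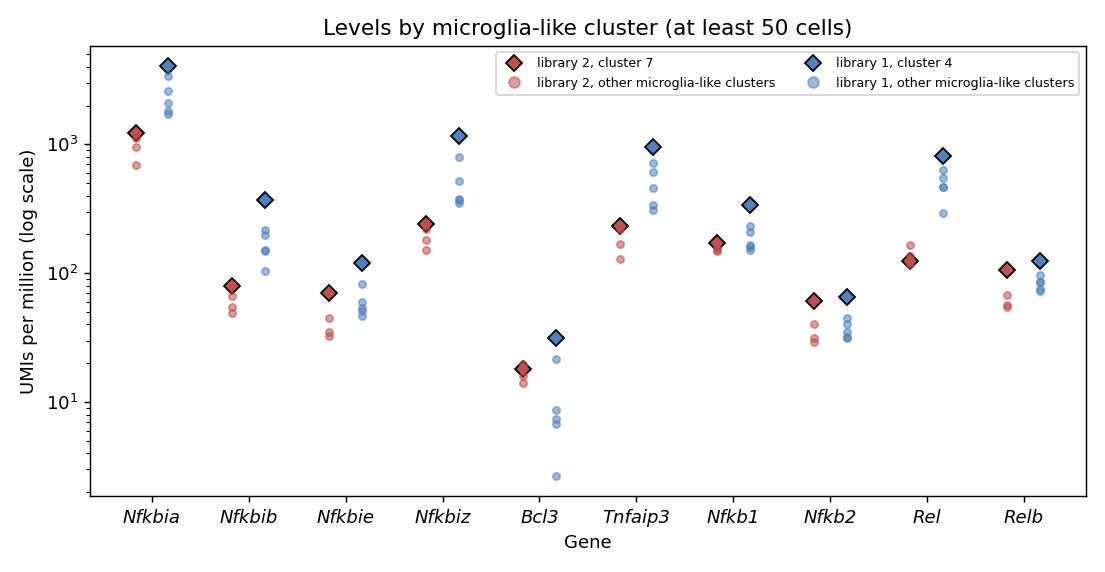
Level of each gene in microglia-like clusters with at least 50 cells, in CPM on a log axis, with the 4 clusters of library 2 left of the 6 clusters of library 1. Diamonds mark cluster 7 of library 2 and cluster 4 of library 1. For Nfkbia, Nfkbib, Nfkbiz, Tnfaip3 and Rel every point of library 2 lies below every point of library 1.

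Across single cells, the AP-1 subunit gene Junb ranked closest to Nfkbia, Nfkbiz, Tnfaip3 and Rel among genes outside the list. The rank is by the smaller correlation of the 2 libraries. Correlations are Pearson's r of log-scaled UMIs over 1717 microglia-like cells of library 2 and, separately, 3079 of library 1. They describe cells that share a library and vary in depth, and the counts are sparse. Among the 45 pairs of the 10 genes the highest was Nfkbia with Tnfaip3, at 0.44 in library 2 and 0.53 in library 1, followed in library 1 by Nfkbia with Nfkbiz (0.33 in library 2 and 0.47 in library 1). The median pair reached 0.12 in library 2 and 0.15 in library 1. Outside the list, and among 6521 genes, Junb was closest to Nfkbia (0.47 and 0.49), followed by the chemokine receptor-like gene Ccrl2 (0.45 and 0.46), the endoplasmic reticulum stress gene Herpud1 (0.36 and 0.43), the cytokine-signalling inhibitor gene Socs3 (0.41 and 0.34) and Tnf (0.40 and 0.34). Junb also ranked closest to Nfkbiz (0.34 and 0.52), Tnfaip3 (0.34 and 0.43) and Rel (0.32 and 0.29). In library 1 alone, Ccnl1 (0.33), Ier5 (0.32) and Mcl1 (0.32) were higher than Junb for Rel. The closest gene to Relb by that rank, Herpud1, reached only 0.16 in both libraries, although Rab20 reached 0.22 in library 2 and 0.14 in library 1. The closest to Nfkb2, Ehd1, reached 0.19 and 0.14. These values are too weak to be read.

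**Figure D4:**
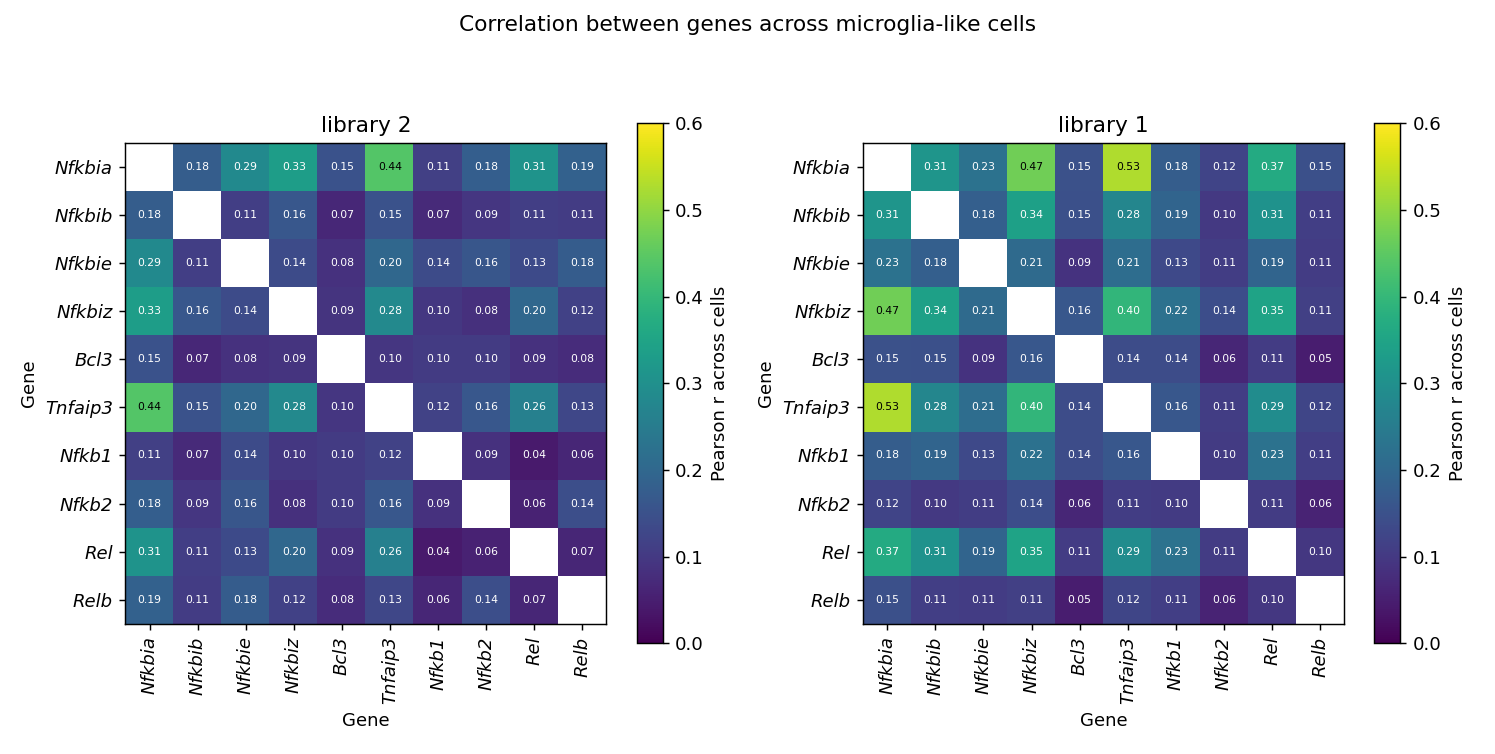
Pearson correlation between the 10 genes across microglia-like cells of library 2 (left) and library 1 (right), from UMIs per 10 000 on a log scale. The brightest cell in both panels is Nfkbia with Tnfaip3, at 0.44 in library 2 and 0.53 in library 1, and rows of Bcl3, Nfkb2 and Relb are dark throughout.

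Immediate early and stress genes, which cells switch on within a short time of many stimuli, moved with these results. All 24 genes of that list were lower in library 2, where 6596 of all 13891 genes were. Of the 24, 15 were more than 2-fold lower, where 1.92% of all genes were. The median ratio of the 24 was -1.22. The list made up a median of 2.64% of a cell's UMIs in library 2 and 6.79% in library 1. Jun, an AP-1 subunit gene, stood at 2958 CPM in library 2 and 10544 CPM in library 1, and Fos at 3606 and 9076 CPM. Atf3, which encodes a factor made under stress, had 1040 CPM in library 2 and 7759 CPM in library 1. The heat shock genes Hspa1a, Hspa1b and Hspb1 were 9.03-fold, 9.38-fold and 22.9-fold higher in library 1. Reads of Hspa1a and Hspa1b, near-identical copies, could be split by the counting. Nfkbia, Nfkbib, Nfkbiz and Tnfaip3 were higher in the fifth of cells with the highest immediate early share than in the fifth with the lowest, in each library. In the fifth of cells with the lowest share and the fifth with the highest, Tnfaip3 reached 61.6 and 291 CPM in library 2, against 243 and 930 CPM in library 1. Nfkbia reached 458 and 1285 CPM in library 2, against 1739 and 3321 CPM in library 1. Rel reached 50.6 and 183 CPM in library 2, against 420 and 599 CPM in library 1. Nfkbie stood at 20.4 and 51.1 CPM in library 2, against 69.2 and 74.7 CPM in library 1. Bcl3 stood at 15.1 and 13.9 CPM in library 2, against 15.2 and 13.4 CPM in library 1. Nfkb1 varied less than Nfkbia, with 114 and 153 CPM in library 2, against 202 and 213 CPM in library 1.

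Within shared bins of immediate early share, microglia-like cells of library 2 had Rel and Nfkbib more than 2-fold lower on average, but not Tnfaip3. This comparison, which was added after the values had been seen, used 3 bins, with shares of 2% to 3%, 3% to 4% and 4% to 6%, that held at least 50 cells of each library. They held 433, 377 and 336 cells of library 2 and 92, 207 and 769 cells of library 1. Cells of a bin can still differ in share between the libraries. Shares of 6% or more were left out, although the median of kept cells of library 1 was 6.79%. Rel kept most of its difference, with ratios of -1.33, -1.44 and -1.53 in the 3 bins. In the lowest bin it stood at 135 CPM in library 2 (125 to 145) and 355 CPM in library 1 (312 to 402). Nfkbib kept ratios of -0.99 to -1.27. Nfkbia (-0.73 to -0.96) and Nfkbiz (-0.82 to -0.93) fell inside the 2-fold limit but stayed lower in library 2 in every bin, with intervals that did not overlap. Tnfaip3 came closest of the 5 to parity: in the lowest bin it stood at 166 CPM in library 2 (155 to 178) and 180 CPM in library 1 (150 to 215), a ratio of -0.11, and in the highest at 277 and 431 CPM, a ratio of -0.62. Averaged over the bins, the ratio of Tnfaip3 was -0.33, against -1.64 in all kept cells. Nfkb1 and Relb had mean ratios of -0.52 and -0.51 here, and Nfkb2 and Bcl3 changed sign from bin to bin. On the mean over the bins 2 genes (Rel and Nfkbib) were more than 2-fold lower in library 2, where 1.37% of all 13891 genes were. The median ratio of the 10 genes was -0.52, and of all genes -0.01. Bins over all kept cells gave 0 genes more than 2-fold lower, where 1.49% of all genes were, and a median of -0.20, but they include a bin of 0% to 1% with 100 cells of library 1 whose median depth was 2114 UMIs, where Nfkbia stood at 332 CPM in library 2 and 127 CPM in library 1. Set against the fifth of library 1 with the lowest immediate early share, library 2 had 3 genes more than 2-fold lower (Nfkbib, Nfkbiz and Rel), where 2.49% of all genes were. None of the 10 was more than 2-fold higher in the bins of microglia-like cells, in those of kept cells or against the fifth just named, where 2.05%, 2.16% and 2.08% of all genes were.

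**Figure D5:**
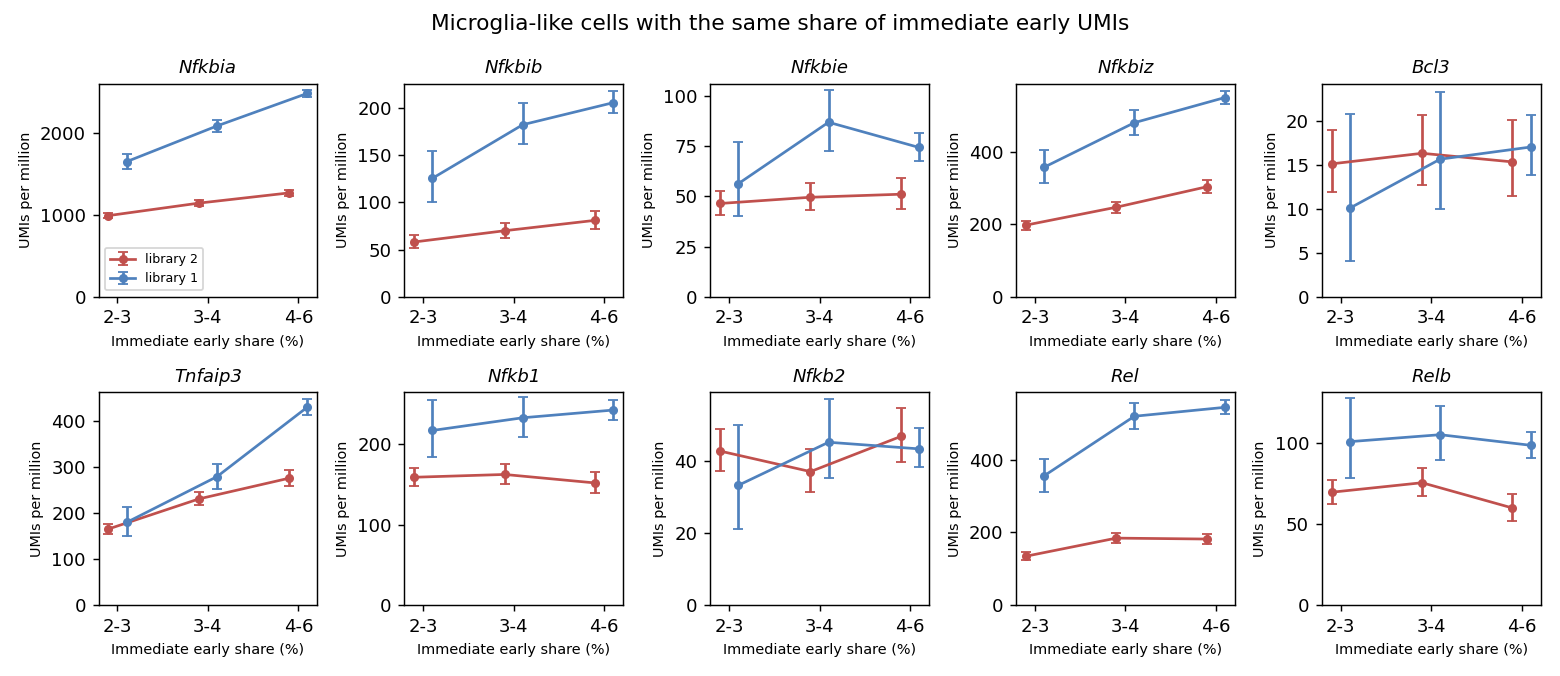
Level of each gene in microglia-like cells grouped by the share of their UMIs that comes from immediate early genes (horizontal axis, in %), for library 2 and library 1, in CPM with exact 95% Poisson intervals. Library 2 lies below library 1 in all 3 bins for every gene but Nfkb2 and Bcl3. The gap is wide for Rel and Nfkbib, and narrow for Tnfaip3 in the lowest bin, at 166 and 180 CPM.

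Upstream components of the pathway lay near parity at their median. Of 21 genes of receptor adaptors, kinases and Rela, 9 were higher and 12 lower in library 2, with a median ratio of -0.02. The sole one past the 2-fold limit was Ikbke, the gene of an IkappaB kinase-related enzyme that also serves interferon induction. It stood at 19.5 CPM in library 2 and 3.22 CPM in library 1, a ratio of 1.16. Of all 13891 genes, 2.76% were past the limit in that direction, while 7295 were higher by any amount and 6596 lower. Tab2, an adaptor of the kinase TAK1, stood at 76.3 CPM in library 2 and 90.4 CPM in library 1. Map3k14, the kinase that starts the alternative pathway, stood at 24.8 and 36.8 CPM, and Traf6, a ubiquitin ligase of Toll-like receptor signalling, at 18.7 and 28.7 CPM.

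Other brakes on the pathway also differed little at their median, -0.05, with 6 of 18 genes higher and 12 lower in library 2. Only Nfkbid, a further nuclear inhibitor-like gene, passed the limit, at 62.9 CPM in library 2 and 139 CPM in library 1, a ratio of -1.03. Of all 13891 genes, 1.92% passed it in that direction, while 7295 were higher by any amount and 6596 lower. Zc3h12a, which encodes an RNase that destroys inflammatory transcripts, stood at 66.4 and 124 CPM. Otulin, a deubiquitinase gene, stood at 53.5 and 99.7 CPM. Rnf11 (42.1 and 79.9 CPM) and Tax1bp1 (116 and 199 CPM), whose proteins work with A20, had ratios of -0.79 and -0.73.

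Target genes of NF-kappaB went both ways. Of 28 genes, 27 reached 20 UMIs (Nos2 did not), 13 of them higher and 14 lower in library 2, with a median of -0.11. In each direction 5 were past 2-fold, where 2.76% of all genes were higher and 1.92% lower by that fold. By any amount, 7295 of all 13891 genes were higher and 6596 lower. The T-cell attractant gene Ccl5 stood at 838 CPM in library 2 and 31.7 CPM in library 1, and the monocyte attractant gene Ccl2 at 2625 and 611 CPM. On the other side, the neutrophil attractant gene Cxcl2 stood at 11.6 CPM in library 2 and 304 CPM in library 1, and the stress-response gene Gadd45b at 50.8 and 508 CPM. The chemokine genes Ccl4 (2709 and 6384 CPM) and Ccl3 (1892 and 3283 CPM) were also lower in library 2.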

How the data were processed

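The authors deposited 1 matrix of UMI counts, whole and not normalized, over 31053 genes and 6272 barcodes. Cell Ranger 3.1.0 wrote it, per the file headers, while bcl2fastq and UMI-tools appear in the submitters' processing notes. Build, annotation and any equalising of depth: not given in the sources used here. Doublets and dead cells were gated out in the sort, per the labels. Totals over all barcodes were 21272560 UMIs in library 2 and 26269168 UMIs in library 1.

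All other values were computed here in Scanpy 1.11.5 and igraph 0.11.9 under Python 3.11.15, with SciPy 1.17.1 for intervals. Barcodes with under 200 genes or over 20% mitochondrial UMIs were left out, and no doublet caller was run. Cells were clustered by the Leiden method at resolution 1 on 2000 variable genes, 30 principal components and 15 neighbours, with the 5 pathway lists set aside. A cluster took the name of a cell type when 3 or more of its markers were in the 50 highest folds, or was called microglia-like with at least 5 of 7 microglia markers at 100 CPM. It was left mixed where another list had at least 2 of its 10 leading genes. It was left unnamed where another list had more of the 10 leading genes, or where its median depth in a library was under 0.333 of that library's with no marker of its own among them. That condition on mixed clusters was added after their genes had been seen. Ratios and intervals were checked on simulated Poisson counts that had no variation between cells or between libraries. That checks the calculation only, not whether the intervals cover such variation.

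No test was possible with 1 library a side, so values are descriptions, and "past 2-fold" means a log2 ratio beyond that fold. The genes, lists and rules were chosen with earlier results of these data known. Genes named from the other lists were the 4 with the largest ratio and the 2 with the highest CPM, drawn on for examples. The closest genes were the 5 with the highest smaller r of the libraries, for genes found in at least 10% of cells. The Pdpn, Flt4, Prox1, Pecam1 and Ptprc values were chosen outside that rule. Promoter sequences are from RefSeq; Nfkbiz, Nfkb1 and Relb were not matched.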

Additional observations from a re-analysis of the deposited data

How the results depend on the processing

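No paired analysis was possible because each group is 1 pool and the barcode suffixes match no label. The median ratio of the 10 genes (-1.06) and the count past 2-fold lower in library 2 (5) were recomputed under 15 alternatives. Dropping the filter on low genes could not change a value, because all 10 genes passed it. Scaling totals to a median log2 ratio of 0 only shifted every ratio by the same small amount. The median moved by more than the counting error of a typical gene of the 10 with totals that leave out mitochondrial, ribosomal protein and haemoglobin genes (-0.96), in shared bins of immediate early share over kept cells (-0.20, with 0 genes past 2-fold), and under 3 alternatives added after seeing the data. Those were shared bins of microglia-like cells (-0.52, 2 genes), library 2 against the fifth of library 1 with the lowest immediate early share (-0.51, 3 genes, where 2.49% of all genes were) and leaving out cluster 4 (-0.79, 5 genes, where 1.79% were). The cause was not tested. In no alternative was a gene past 2-fold higher in library 2, and no gene past the limit changed sign. Over the 15 alternatives Rel ranged from -2.002 to -0.81, Nfkbib from -1.72 to -0.78, Nfkbiz from -1.71 to -0.56, Nfkbia from -1.51 to -0.28 and Tnfaip3 from -1.68 to -0.11. Bcl3, Nfkb2 and Relb crossed 0. Leaving out cells with shared barcodes left every value within its counting interval. With cells thinned to 1000 UMIs, Nfkbiz (-1.71), Tnfaip3 (-1.53) and Relb (-0.29) moved by more than the counting error of the unthinned counts. The other 7 did not. Thinned counts are far fewer and their own, larger error was not computed, so these 3 moves may lie within it.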
